A study of Mus musculus with 2 samples.

Results

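Tuft cell identity and leukotriene genes are described here as a set of 10 genes, chosen by symbol: Dclk1, Trpm5, Pou2f3, Ltc4s, Alox5ap, Alox5, Avil, Lrmp, Il25 and Gfi1b. All 10 were among the 18919 genes of the deposited table, and 8 of them reached 1 FPKM (sequenced fragments scaled to transcript length and library size) in at least 1 library, the level above which a gene was counted as measured. These 8 reached it in both. Il25 and Gfi1b stayed below it. The data come from whole intestine of C57BL/6 mice aged 2 months. The control pool had the genotype APCmin, a truncating Apc mutation that causes intestinal adenomas, and the knockout pool the genotype APCmin; Setd2IEC-/-, which adds loss of the H3K36 methyltransferase Setd2 in intestinal epithelial cells. Both pools therefore carried the Apc mutation, no pool was wild type, and cells outside the epithelium kept Setd2. Which Cre line made the deletion is not given in the sources used here. RNA of 3 littermates was mixed into each sample, so that each genotype had 1 library, and no value below has a replicate or a p-value. The pools are also called control mice and Setd2-deleted mice below. The comparison asks how the tuft genes of the Apc-Min intestine differ when the epithelium lacks Setd2.

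Tuft cells are rare chemosensory cells of the intestinal epithelium that carry a tuft of long microvilli. They sense luminal metabolites of parasites and microbes through a taste-like cascade that ends at the channel Trpm5, and answer with the cytokine IL-25 and with cysteinyl leukotrienes, which act on group 2 innate lymphoid cells. IL-13 from those cells in turn increases the number of tuft and goblet cells. Pou2f3 is the transcription factor without which tuft cells do not form. Leukotrienes are made from arachidonic acid by 5-lipoxygenase (Alox5) with its activating protein FLAP (Alox5ap), and leukotriene C4 synthase (Ltc4s) adds glutathione to the product. Mast cells and myeloid cells use the same enzymes.

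The control library held 8809678 expected counts (read counts that the authors' software estimates per gene) and the knockout library 8646358. Setd2 itself was at 6.87 FPKM in control mice and 3.47 in Setd2-deleted mice, a count ratio of 0.504 (95% counting interval 0.432 to 0.587), in RNA that also holds cells which kept the gene. Here and below, a count ratio is the knockout pool's share of its library total over that of the control pool, and its interval reflects how many reads were counted and nothing about how mice vary. A log2 ratio is knockout over control after adding 1 FPKM to each. Transcripts of pancreas and stomach stood apart between the pools: summed counts of 14 acinar genes had a ratio of 37.4 (34.7 to 40.3) and those of 11 stomach genes 4.43 (3.98 to 4.93), both higher in the knockout pool. Sst, which is also on the enteroendocrine list, gave 288 of the stomach sum's 430 counts in control mice and 195 in Setd2-deleted mice. It was the only measured gene of the stomach list below 0. Gkn3, the other stomach gene measured in both pools, had a ratio of 9.11 (7.11 to 11.8). Stomach and pancreatic ducts can hold tuft cells too, and what part this tissue has in the values below was not tested.

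Of the 10 members, 9 were lower by value in the knockout pool and Avil was higher. The 9 include Il25 and Gfi1b, which stayed below 1 FPKM in both pools. Among the 8 measured members, 7 had a log2 ratio below 0, where 37.2% of the 13253 measured genes did. The median of the 8 was -0.39, beside 0.08 for all measured genes. On this log2 scale no member was 2-fold lower or 2-fold higher, where 1.28% and 2.78% of measured genes were. At a threshold of 1.5-fold, 2 members were lower, Ltc4s and Lrmp, where 3.46% of measured genes were, and 0 were higher, where 8.01% were. The counting interval lay below 1 for 5 members (Dclk1, Trpm5, Ltc4s, Alox5 and Lrmp), a state shared by 12.5% of measured genes, and above 1 for Avil, as for 28.0%. Together the 10 members had 1080 counts in control mice and 842 in Setd2-deleted mice, or 123 and 97.4 CPM (counts scaled to the library total), a ratio of 0.794 (0.725 to 0.8701). In bulk tissue, fewer tuft cells and less of these transcripts per tuft cell cannot be told apart.

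**Figure D1:**
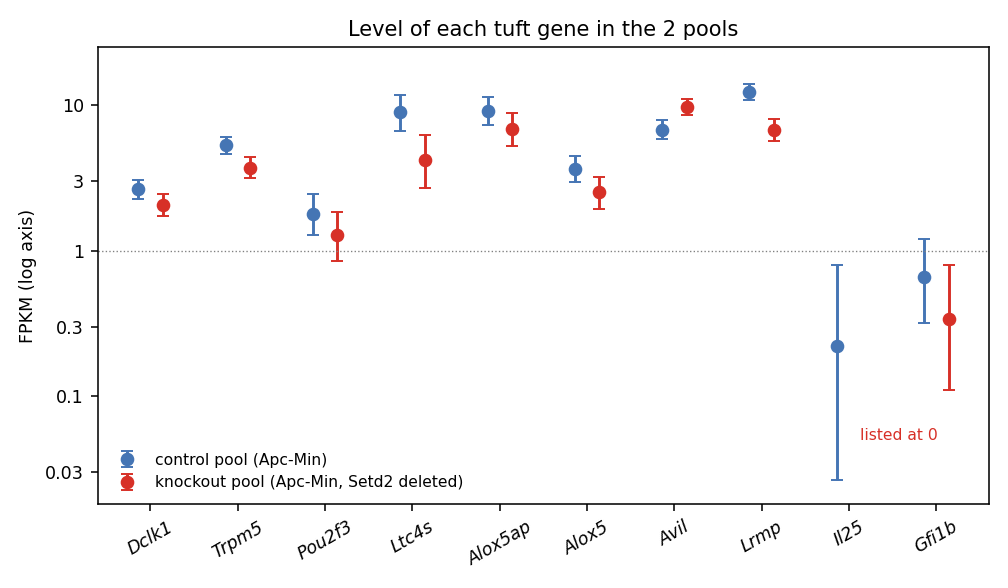
Level of each of the 10 tuft genes in FPKM (log axis) in the control pool (blue) and the knockout pool (red), 1 library each. Bars are 95% Poisson intervals of the counts, scaled to FPKM, and the dotted line marks 1 FPKM. The red point lies below the blue one for each gene drawn in both pools except Avil (6.80 and 9.73 FPKM), and Il25 is listed at 0 in the knockout pool.

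Pou2f3 (gene identifier 18988, mm10 chromosome 9, 43123939 to 43210369), the master regulator of the lineage, was at 1.79 FPKM in control mice and 1.28 in Setd2-deleted mice, from 40 and 28 counts. Its count ratio was 0.713, and the interval of 0.424 to 1.19 includes 1, so that a difference was not detectable at this depth. Gfi1b (chromosome 2, 28609450 to 28621982), a zinc finger repressor that tuft cells share with red cell and platelet precursors, was at 0.66 and 0.34 FPKM, from 10 and 5 counts. Its ratio of 0.509 had an interval of 0.137 to 1.64. Summed over both factors, the counts were 50 and 33, a ratio of 0.672 (0.4197 to 1.06). Both factors were thus lower by value and neither by more than counting error. Of red cell and platelet transcripts, 6 were measured, 4 of them globins, and these 6 were higher in the knockout pool, as 62.5% of all measured genes were. Their median log2 ratio was 1.39, and the list's summed level was 258.5 FPKM against 79.06. The red cell precursor factor Klf1, below 1 FPKM in both pools, went from 11 counts in control mice to 2 in Setd2-deleted mice (ratio 0.185, 0.01995 to 0.849). Of the list's 14 genes in the table, 2 were listed at 0 in control mice and 1 in Setd2-deleted mice.

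Dclk1 (chromosome 3, 55242364 to 55539068), a microtubule-linked kinase used as the standard tuft marker of mouse intestine and adenoma, was at 2.64 FPKM in control mice and 2.06 in Setd2-deleted mice. Its 181 and 136 counts gave a ratio of 0.766 (0.608 to 0.962). The table lists 7 transcripts for it, and their abundance-weighted length was 7677.89 bases in control mice and 7531.29 in Setd2-deleted mice, which sets part of its FPKM. Dclk1 is also made by neurons, and 3 of 6 measured genes of enteric neurons and glia were lower and 3 higher, with a summed level of 24.81 FPKM in control mice and 29.62 in Setd2-deleted mice. Trpm5 (chromosome 7, 143069153 to 143094642), the cation channel that depolarises the cell after taste-like stimulation, was at 5.30 and 3.73 FPKM. From 207 and 143 counts its ratio was 0.704 (0.565 to 0.875). On the FPKM scale Dclk1 over Trpm5 was 0.498 in control mice and 0.552 in Setd2-deleted mice. The odds ratio of their counts was 1.09 (0.7898 to 1.498), so that a difference between the 2 genes was not detectable.

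Lrmp (chromosome 6, 145115653 to 145174934), a membrane protein of the endoplasmic reticulum also called Jaw1, had the highest level in the control pool, 12.36 FPKM, and was at 6.79 in the knockout pool. Its counts were 232 and 127, a ratio of 0.558 (0.446 to 0.695). Lrmp was first known as a lymphoid gene, and the B cell marker Ms4a1 was lower in the same pool. Ms4a1, which encodes CD20, was at 5.73 FPKM in control mice and 0.90 in Setd2-deleted mice. In the list of B and plasma cells, 9 of 14 measured genes were below 0, where 37.2% of all measured genes were. Of those 9, 4 were measured in the control pool alone, Ms4a1 among them, so that their direction was set by the filter. The list's other 5 were above 0, among them Jchain, which joins secreted antibodies and was at 609.10 and 744.69 FPKM, and Derl3, a secretory pathway gene of plasma cells, at 7.28 and 10.65. The summed level of the 15 listed genes in the table, of which Jchain makes up most, was 802.4 FPKM in control mice and 931.5 in Setd2-deleted mice, and none was at 0. What part B cells have in the Lrmp value was not tested. With Lrmp left out, the counts of the other 9 members summed to 848 and 715, giving 0.859 (0.777 to 0.9501), and without both Lrmp and Avil the other 8 summed to 665 and 458, giving 0.702 (0.622 to 0.792).

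Avil (chromosome 10, 127000709 to 127020994) encodes advillin, an actin-bundling protein of the villin family found in the microvilli of tuft cells and in sensory neurons. It was at 6.80 FPKM in control mice and 9.73 in Setd2-deleted mice, from 183 and 257 counts, a ratio of 1.43 (1.18 to 1.74). The knockout pool's value made Avil the highest of the 10 genes there, whereas 3 members stood above it in the control pool. Its log2 ratio of 0.46 was above that of 87.8% of measured genes, whereas the next highest member, Dclk1, was above 12.3%. Against the summed counts of the other 9 members, Avil had an odds ratio of 2.15 (1.72 to 2.69), and against Dclk1 and Trpm5 alone 1.87 (1.38 to 2.53) and 2.03 (1.51 to 2.73). Avil shares 165 of its 3398 annotated exon bases with Tsfm on the opposite strand. Tsfm, a mitochondrial translation factor, was at 17.23 and 17.07 FPKM, and its whole-number counts were 177 and 172. Whether the libraries kept strand is not given in the sources used here. Leaving Avil out after its value was seen, the counts of the other 9 members summed to 897 and 585, giving 0.664 (0.598 to 0.738).

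**Figure D2:**
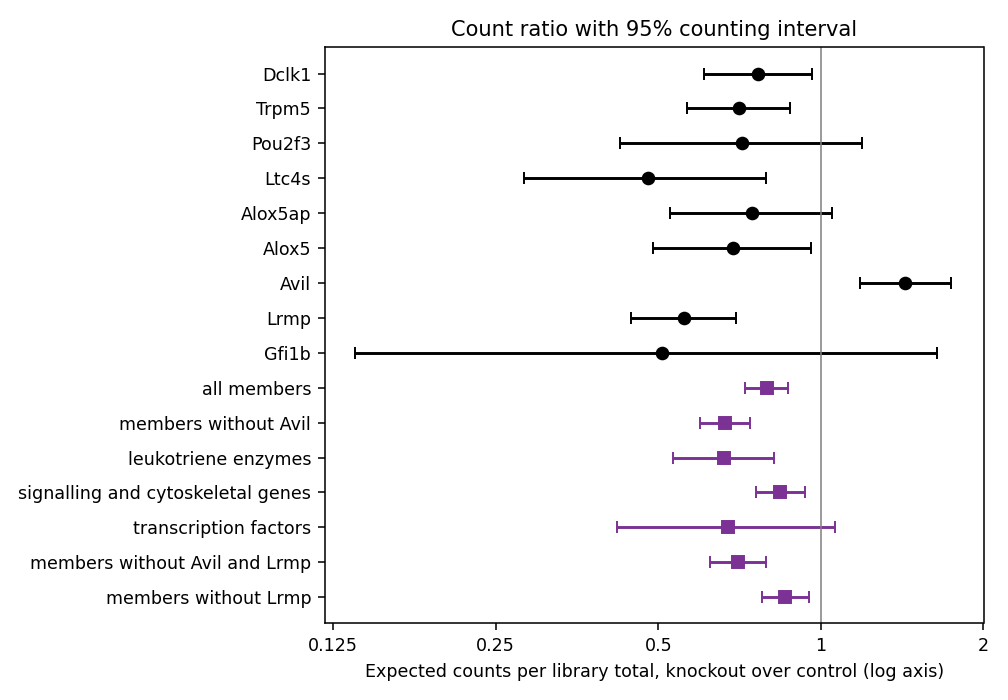
Count ratio of knockout over control (log axis) for the 9 members with counts in both pools (black circles) and for sums over groups of members (purple squares), with 95% counting intervals. Avil, at 1.43, is the only interval wholly above 1, and the sum over the members without Avil is at 0.664.

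Promoter windows are shown for the member that was higher, Avil, and for the one with the lowest measured ratio, Ltc4s, since the octamer ATGCAAAT is the usual motif of POU factors such as Pou2f3. Windows run from 250 bases before to 50 after an annotated start and come from RefSeq on GRCm38.p6, the build also called mm10. Of the 10 members, 6 had a window (7 windows, since Dclk1 has 2 annotated starts). The octamer, searched on both strands, was in 0 of the 7, where 1.74% of all 32851 windows held it. Its first 6 letters, ATGCAA, which are part of the octamer and are written TTGCAT on the other strand, were in the Avil window alone, 114 and 15 bases upstream of the start, where 10.7% of all windows held them at least once. Those letters are in capitals below. A match describes letters and is not a measured binding site. The Avil window is chr10:127000459-127000758 on the plus strand and the Ltc4s window chr11:50238483-50238782 on the minus strand.
Avil: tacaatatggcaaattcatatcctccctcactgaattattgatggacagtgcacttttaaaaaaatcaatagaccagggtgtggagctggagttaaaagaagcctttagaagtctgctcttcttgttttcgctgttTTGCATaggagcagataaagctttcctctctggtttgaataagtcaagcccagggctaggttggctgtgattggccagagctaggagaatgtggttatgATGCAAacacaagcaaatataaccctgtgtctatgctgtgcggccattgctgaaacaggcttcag
Ltc4s: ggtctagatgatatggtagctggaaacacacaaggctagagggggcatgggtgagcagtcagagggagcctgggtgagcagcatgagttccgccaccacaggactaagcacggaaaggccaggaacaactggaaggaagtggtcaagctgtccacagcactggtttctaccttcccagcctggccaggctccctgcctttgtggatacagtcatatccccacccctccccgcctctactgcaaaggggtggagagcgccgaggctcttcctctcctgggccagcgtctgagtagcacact

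The 3 enzymes of leukotriene C4 synthesis were each lower in the knockout pool, with 225 counts in control mice and 146 in Setd2-deleted mice, a ratio of 0.661 (0.533 to 0.818). Alox5 (chromosome 6, 116410077 to 116461178), the lipoxygenase that starts the pathway, was at 3.67 FPKM in control mice and 2.52 in Setd2-deleted mice (92 and 62 counts, ratio 0.687, 0.489 to 0.958). Alox5ap (chromosome 5, 149264767 to 149288153), which presents arachidonic acid to it, was at 9.18 and 6.85 FPKM. Its 82 and 60 counts gave a ratio of 0.746 whose interval, 0.525 to 1.05, includes 1. Ltc4s (chromosome 11, 50236461 to 50238616) was at 8.99 and 4.23 FPKM. Its counts were 51 and 24, the ratio 0.479 (0.282 to 0.793) and the log2 ratio -0.93, lower than in all but 1.41% of measured genes. With the pseudocount of 0.1 FPKM its log2 ratio passed the 2-fold line.

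Ltc4s thus had the lowest value of the 3, but whether it was lower than its partners was not detectable. On the FPKM scale Ltc4s over Alox5 was 2.45 in control mice and 1.68 in Setd2-deleted mice, and the odds ratio of the counts was 0.699 (0.371 to 1.29). Against Alox5ap the odds ratio was 0.644 (0.3398 to 1.202). Alox5ap over Alox5 was 2.50 and 2.72 on the FPKM scale, with an odds ratio of 1.09 (0.665 to 1.77). Besides Avil, the members whose interval against all the others excluded 1 were Lrmp (0.649, 0.507 to 0.829) and Ltc4s (0.592, 0.345 to 0.989), and with Avil left out of the reference neither did: Lrmp was at 0.795 (0.615 to 1.02) and Ltc4s at 0.7098 (0.413 to 1.19). Among the 9 members other than Avil, none had an interval against the rest of them that excluded 1. Trpm5 shares 220 of its 6398 exon bases with Tssc4 (13.62 and 15.97 FPKM) on the opposite strand, and Lrmp 101 of 4070 with Casc1 (0.04 and 0.36). An antisense gene shares 268 of the 1014 annotated exon bases of Ltc4s and another 189 of the 1420 of Alox5ap, and their reads cannot be separated without strand.

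Il25 (chromosome 14, 54932695 to 54935837), the cytokine that tuft cells send to innate lymphoid cells, had 2 counts in the control pool (0.22 FPKM) and is listed at 0 in the knockout pool. A count of 0 allows up to 0.347 CPM in that library, and the control value of 0.227 is itself under the floor of 3 counts. No fold is given, and a difference in Il25 was not detectable at this depth.

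Mast cells and myeloid cells also make leukotriene C4, and lists of their transcripts are given here. The 3 mast cell genes measured in both pools (Mcpt1, Mcpt2 and Kit) were higher in the knockout pool, as 62.5% of all measured genes were. The summed level over the 12 listed genes was 17.15 FPKM in control mice and 71.50 in Setd2-deleted mice. The mucosal mast cell protease Mcpt1 was at 6.85 FPKM in control mice and 38.91 in Setd2-deleted mice, and Mcpt2 at 5.12 and 19.67. The receptor Kit was at 2.83 and 5.04 FPKM and the IgE receptor chain Fcer1a at 0.45 and 1.15. Tpsb2 and Ms4a2 were listed at 0 in the control pool, and no gene of the list was at 0 in the knockout pool. Another 4 genes of the list, Fcer1a among them, reached 1 FPKM in the knockout pool alone, so that their direction was set by the filter. Hdc, below 1 FPKM in both pools, was lower by value, at 0.80 FPKM in control mice and 0.57 in Setd2-deleted mice. Its count ratio of 0.719 had an interval of 0.313 to 1.598. Of 15 measured macrophage and monocyte genes, 12 were above 0 and 3 below, where 62.5% of all measured genes were above 0. Their summed counts had a ratio of 1.003 (0.955 to 1.05), with sums of 301.8 FPKM in control mice and 298.8 in Setd2-deleted mice. Lyz2, the myeloid lysozyme, was at 107.73 and 76.97 FPKM, the high-affinity Fc receptor Fcgr1 at 1.40 and 0.71, the lysosomal protein Cd68 at 4.37 and 6.29, and Fcer1g, an Fc receptor adaptor, at 18.08 and 23.69. Neutrophil and eosinophil genes, 10 measured and 2 of these in the knockout pool alone, went both ways and had sums of 17.75 and 23.71 FPKM. The chemokine receptor Cxcr2 was at 2.19 and 3.18 FPKM, the calprotectin chains S100a9 at 1.11 and 2.72 and S100a8 at 2.19 and 1.91, and the eosinophil granule protein Prg2 at 3.06 and 2.12. What part mast cells and myeloid cells have in the values of Alox5, Alox5ap and Ltc4s was not tested.

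The other steps of the leukotriene pathway went both ways. Of 24 further pathway genes, 22 had a row in the deposited data and 15 were measured, 9 of them above 0 and 6 below under each scaling tried, with a median log2 ratio of 0.13. Both values were close to those of all measured genes, of which 62.5% were above 0, with a median of 0.08. Abcc1, which exports leukotriene C4, was at 1.49 FPKM in control mice and 3.47 in Setd2-deleted mice, a count ratio of 2.33 (1.78 to 3.08). Mgst2, a microsomal enzyme that can also make leukotriene C4, was at 178.04 and 258.69 FPKM, with a count ratio of 1.45 (1.33 to 1.58). The related Mgst3 was the most abundant gene of this list, at 533.54 and 471.71 FPKM, and Mgst1 was at 159.05 and 126.91. Dpep1, a dipeptidase that trims leukotriene D4 to E4, was at 135 FPKM in control mice and 65.10 in Setd2-deleted mice, with 2682 and 1269 counts and a ratio of 0.482 (0.451 to 0.516).

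Other tuft cell markers form a list without the 10 members. Of 40 genes 39 were in the table and 34 measured. Of these, 24 were below 0 (23 to 26 under the other scalings), 9 above 0 and 1 at 0. Among all measured genes 37.2% were below 0 and 62.5% above. The list's median was -0.16, beside 0.08 for all measured genes, with a 95% interval from order statistics of -0.25 to -0.01. That interval treats the genes as independent, although they were picked as tuft markers and share the same 2 libraries. It says nothing about how mice vary. The same interval for the 8 measured members ran from -0.93 to 0.46, and the difference between the medians was not tested. Strip2 was at 2.26 FPKM in control mice and 1.10 in Setd2-deleted mice (ratio 0.481, 0.338 to 0.677), and Spib, a transcription factor of tuft cells that B cells also express, at 9.08 and 4.97 (ratio 0.547, 0.434 to 0.684). In the other direction, the keratin Krt23 was at 5.34 and 13.33 FPKM, a count ratio of 2.498 (1.89 to 3.33), and Ly6g6d at 2.74 and 5.19 from 14 and 26 counts. The most abundant of them, the surface glycoprotein Cd24a, which other crypt cells also make, was at 84.18 and 83.13. Summed counts of the 39 genes had a ratio of 0.926 (0.895 to 0.958), a sum in which Cd24a weighs heavily. The counting interval lay below 1 for 7 of the 34, where 12.5% of all measured genes did, and above 1 for 3, where 28.0% did.

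**Figure D3:**
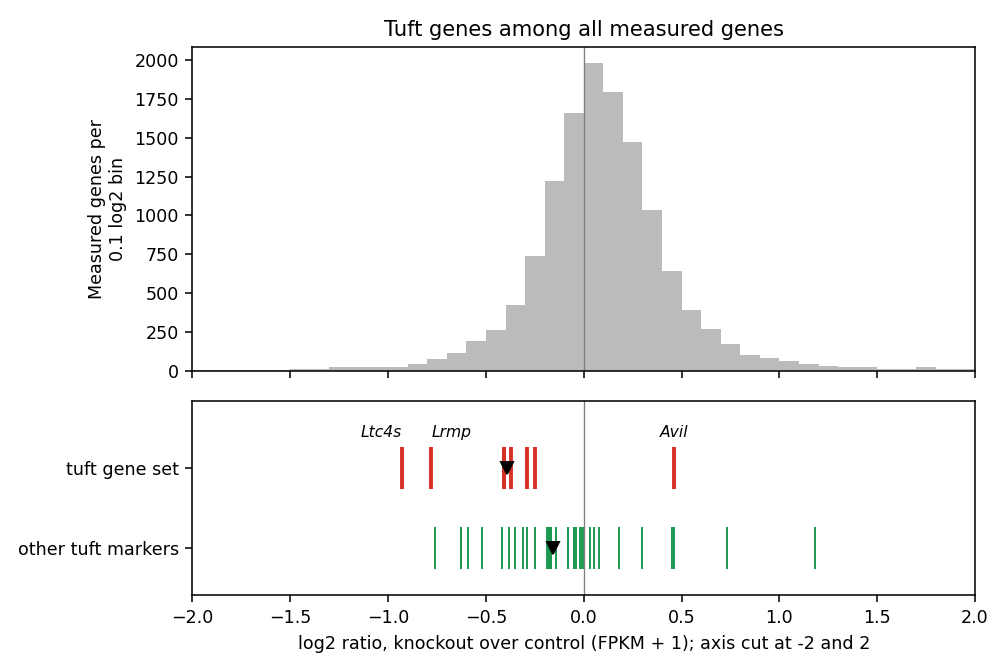
Top: number of measured genes in each bin of 0.1 of the log2 ratio, knockout over control. Bottom: log2 ratio of each measured tuft member (red ticks) and of each other tuft marker (green ticks), with black triangles at the medians of -0.39 and -0.16; 7 of 8 red ticks lie left of 0 and Avil lies right of it.

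The regulators and sensory genes around the members went both ways. Of 13 measured regulators linked to the lineage, 10 were above 0 and 3 below, with a median of 0.13, where 62.5% of all measured genes were above 0 and their median was 0.08. Hmx3, above 0, was measured in the knockout pool alone. The 3 below 0 were Spib, Pou2af1, a coactivator of octamer factors in B cells, and 1810046K07Rik, the gene now called Pou2af2, whose product is the tuft cell coactivator of Pou2f3. 1810046K07Rik was at 7.82 FPKM in control mice and 4.87 in Setd2-deleted mice, with 90 and 55 counts and a ratio of 0.623 (0.437 to 0.8804). Pou2af1 was chosen after its values were seen. Sox9 (2.41 and 4.72 FPKM) and Sox4 (3.30 and 6), progenitor factors of the crypt, and Myb (7.13 and 11.52), a factor of dividing progenitors, were higher in the knockout pool. Of the taste-like cascade 6 of 13 genes were measured and 5 of these were above 0, where 62.5% of all measured genes were. The phospholipase Plcb2, the step before calcium release and Trpm5, was below 0, at 2.42 FPKM in control mice and 1.53 in Setd2-deleted mice (111 and 68 counts, ratio 0.624, 0.455 to 0.852). Trpm5, the end of the cascade, is a member and not part of this list, and its ratio was 0.704 (0.565 to 0.875). The calcium release channels Itpr3 (17.96 and 22.35) and Itpr2 (2.96 and 4.40) and the taste receptor Tas1r2 (0.41 and 1.01, from 11 and 27 counts, measured in the knockout pool alone) were higher. These 3 were the only measured genes of the list with a counting interval above 1, which 28.0% of all measured genes had. Gnat3, the taste G protein gustducin, had 2 and 0 counts and, like Il25, allows no statement.

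In the type 2 circuit that tuft cells feed, 8 of 12 measured genes were above 0 (7 where Crlf2 changed sign, under the epithelium and median-ratio scalings), with a median of 0.10, close to the 62.5% and 0.08 of all measured genes. Il2ra, above 0, was measured in the knockout pool alone. Il17rb, a chain of the IL-25 receptor that tuft cells carry themselves, was at 3.63 FPKM in control mice and 2.24 in Setd2-deleted mice (66 and 40 counts, ratio 0.618, 0.406 to 0.928). Its partner chain Il17ra was at 6.02 and 5.83. Il1rl1, the IL-33 receptor of mast cells and innate lymphoid cells, was at 3.60 and 9.83 FPKM, 2.49-fold higher (2.01 to 3.09), in the pool where mast cell genes were higher. Retnlb, a goblet cell protein induced by IL-13, was at 13.07 and 70.24 FPKM, with a count ratio of 5.37 (4.22 to 6.91). Il13ra1, the IL-13 receptor chain and the gene of the list with the highest mean over both pools, was at 47.96 and 46.81. Il17rb was lower, as were 7 of the 8 measured members and 37.2% of all measured genes, and Retnlb was higher.

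**Figure D4:**
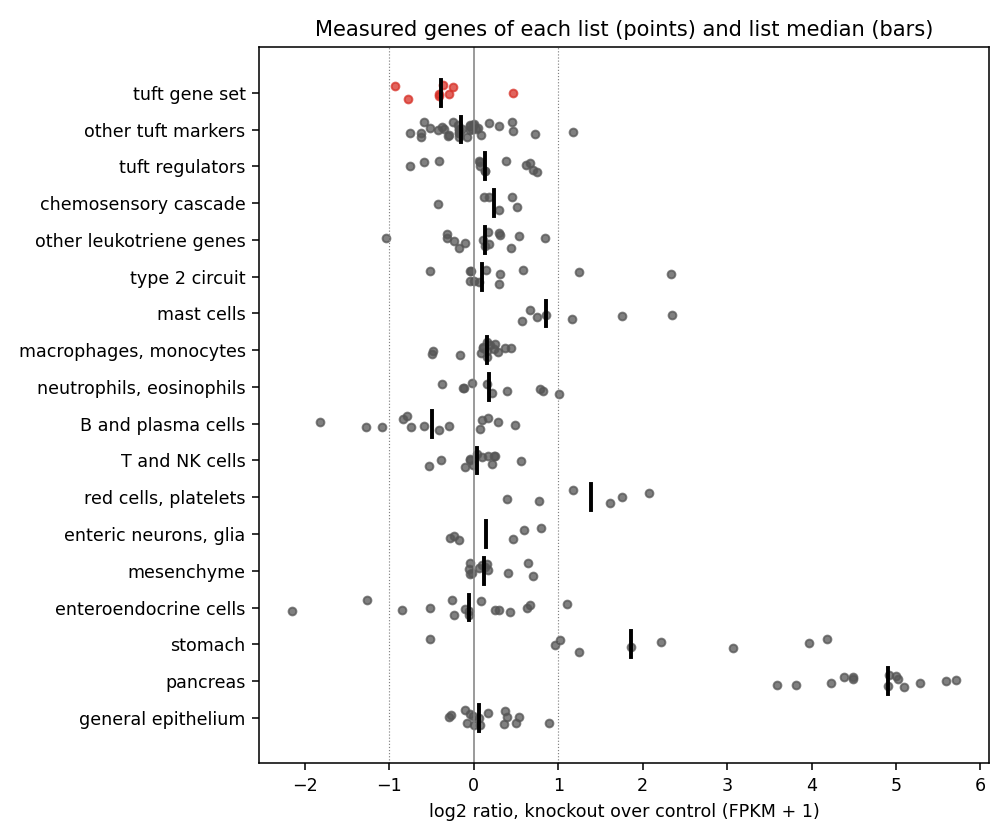
Log2 ratio of knockout over control for each measured gene (points, with vertical scatter added for legibility) of the tuft set and 17 other lists, with list medians as black bars and dotted lines at 2-fold. The tuft set has a median of -0.39, and the pancreas list lies wholly right of 0.

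Summed counts of 16 general epithelial genes, among them Epcam and keratins, had a ratio of 1.02 (1.02 to 1.03). Single genes of this list ran from 0.817 (Vil1) to 1.87 (Krt18). Their counting interval lay above 1 for 8 and below 1 for 4, as it did for 28.0% and 12.5% of all measured genes. Relative to the summed epithelial counts, the 10 members had an odds ratio of 0.776 (0.708 to 0.850), the 9 other than Avil, left out after its value was seen, 0.649 (0.584 to 0.721), the leukotriene enzymes 0.646 (0.521 to 0.799) and Avil 1.398 (1.15 to 1.699). Enteroendocrine genes, of the other chemosensory lineage, went both ways, 16 being measured, 3 of them in the control pool alone and 1 in the knockout pool alone. Gcg, the proglucagon gene, was at 6.21 FPKM in control mice and 0.63 in Setd2-deleted mice, neurotensin (Nts) at 2.78 and 0.57, and Gip, the incretin with the highest mean of the list, at 80.87 and 44.45. In the other direction, the granule protein Scg5 was at 0.84 and 2.95 FPKM and ghrelin (Ghrl) at 33.07 and 52.83. Their summed counts were 3301.17 in control mice and 3400.29 in Setd2-deleted mice. Genes of T and NK cells (ratio 1.06, 1.01 to 1.12) and of mesenchyme (1.06, 1.03 to 1.08) differed little in sum.

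The members' levels per transcript length kept most of their order. In the control pool the order from high to low was Lrmp, Alox5ap, Ltc4s, Avil, Trpm5, Alox5, Dclk1, Pou2f3, Gfi1b and Il25. Neighbours in it did not differ beyond their counting intervals, except that Trpm5 was above Alox5 and Pou2f3 above Gfi1b. In the knockout pool Avil came first and Lrmp after Alox5ap, and the order from Ltc4s down was as in the control pool. There the only neighbours whose intervals did not overlap were Pou2f3 and Gfi1b. The means of the 8 measured members lay between the percentiles 10.9 (Pou2f3) and 53.5 (Lrmp) of the 13253 measured genes.

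**Figure D5:**
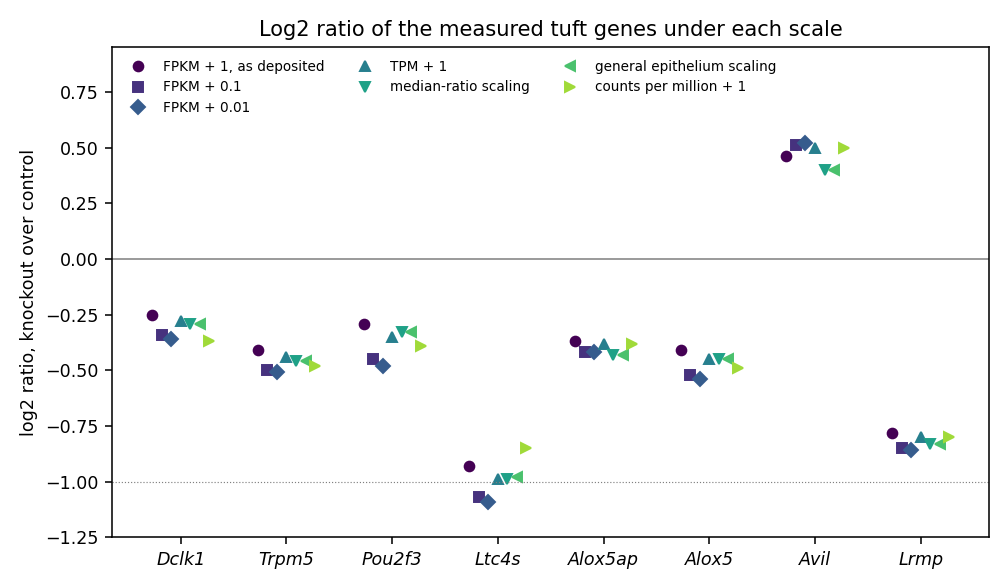
Log2 ratio of knockout over control for the 8 measured tuft genes under 7 ways of scaling or adding a pseudocount (symbols). Avil is above 0 and the other 7 genes below 0 under each of the 7, and Ltc4s crosses the dotted 2-fold line at pseudocounts of 0.1 and 0.01 FPKM.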

How the data were processed

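Intestinal RNA of 1 control and 1 knockout pool was sequenced. Per the labels' protocols and the submitters' processing notes, the authors aligned reads to mm10 with BWA and Bowtie2 and quantified them with RSEM (versions not given in the sources used here). Per the file headers, the deposited sample files give expected counts and FPKM per gene, and the deposited series table the same FPKM with 0 for unlisted genes. Reads that fit several genes are divided among them. FPKM corrects for transcript length and library total, so other tissue in a pool lowers every other gene slightly.

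Members, lists and comparisons were chosen with earlier results of these data known. A gene was measured at 1 FPKM or more in at least 1 library. Log2 ratios used a pseudocount of 1 FPKM. Count ratios used expected counts over the library total, with exact Clopper-Pearson 95% intervals of the counts rounded to whole numbers, odds ratios exact conditional intervals, and levels exact Poisson intervals. All of these cover counting error only, as does the floor of 3 counts (0.341 and 0.347 CPM). Intervals of list medians, from order statistics, reflect the spread over the listed genes of the same 2 libraries and nothing about how mice vary. The intervals were tested on simulated data, drawn independently for each gene. Named genes are all members and, in each list described, the most abundant gene and at each end of its measured log2 ratios up to 2 genes. Of the genes this rule names, 1 is not reported here. Any other gene, Tsfm among them, was chosen after its values were seen. Positions are those of GENCODE M21. Pseudocounts, scalings and filters were varied. Python 3.11.15, pandas 2.3.3, numpy 2.4.6, scipy 1.17.1 and matplotlib 3.10.9 were used.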

Additional observations from a re-analysis of the deposited data

How the results depend on the processing

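The 8 alternatives were pseudocounts of 0.1 and 0.01 FPKM, rescaling to TPM, scaling by the median ratio, scaling by the general epithelium list, CPM with a pseudocount of 1, no filter, and a filter of 5 FPKM in the higher library. No member changed sign in any of them, and the 75 values of single members stayed within their counting intervals. The interval of Il25 starts at 0, so that no lower value could leave it. At a pseudocount of 0.01 FPKM the log2 ratio was -4.52 for Il25 and -0.94 for Gfi1b, beside -0.29 and -0.31 at 1 FPKM. Members 2-fold lower were 1, Ltc4s, in place of 0 at a pseudocount of 0.1 and again 1 at 0.01. With the filter of 5 FPKM, 5 members were kept, of which 4 were below 0, because fewer genes were tested. The members' median ranged from -0.49 to -0.34, and that of the other tuft markers from -0.20 to -0.08. The median of all genes ranged from 0.03 to 0.10. Depth limits Il25, Gfi1b, Pou2f3 and Ltc4s most, with 51 counts or fewer per library. No paired analysis was possible because each group has 1 library, and for the same reason no replicate could be left out.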
